A study of Mus musculus with 6 samples.

Results

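The genes described here encode the proteins of the cytosolic ribosome, the particle that translates messenger RNA. They were chosen by name, as protein-coding genes whose symbol is Rpl (large subunit) or Rps (small subunit) followed by a number. After the number, at most a letter (a, x, l or y) and then a digit may follow. Rpsa, Rplp0, Rplp1 and Rplp2 were included, and the S6 kinases and the pseudogenes were left out. The rule found 83 genes among 43432 measured gene identifiers, of which 51 belong to the large subunit and 32 to the small subunit. It uses no measured value, and it leaves out, among others, Fau, Rack1 and Rpl36al, which also encode ribosomal subunits or ribosome-bound proteins. Another 5 identifiers met the symbol rule but are annotated as pseudogenes (Rpl6l, Rps3a2, Rps3a3, Rps12l1 and Rps4l) and were not counted as members.

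Bulk poly(A) RNA from the colon of 6 wild-type mice was sequenced, giving 1 library for each animal. The stressed group held mice 10, 11 and 13, and the resting group held mice 15, 17 and 19. Stressed mice underwent restraint for 30 min on 3 days, with the colon taken straight after the last episode, and the labels of the resting mice repeat this restraint note, so only the treatment label separates the groups. The labels name no strain, sex or age, and no allele or agent other than restraint is named. The comparison asks whether restraint changes the transcripts of the colon, here those of the translation machinery.

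Each ribosome holds a single copy of nearly every ribosomal protein, so cells make these proteins in matched amounts. In mammals their mRNAs are abundant, long-lived and carry a stretch of pyrimidines (C or T in the DNA) at the very start, the terminal oligopyrimidine or TOP motif, through which mTORC1 and LARP1 control their translation when nutrients or growth signals change. In the intestine, dividing crypt cells and secretory cells are heavy users of this machinery. An RNA-seq library reads the amount of the mRNA and not its translation, and in whole tissue fewer cells of a type and less RNA per cell cannot be told apart.

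The start of several members shows this motif. RefSeq promoter windows on build GRCm38.p6, running from 250 bases before to 50 bases after the annotated start, were at hand for 63 of the 83 genes, as 75 windows. The windows below show 30 bases on the strand of the gene, 5′ to 3′, in which the first transcribed base is the 11th letter and capitals mark the longest run of C and T. The first 5 are members whose start is a C followed by at least 4 pyrimidines, shown because they carry the motif in its textbook form. The last 4 are paralogs of core members, shown because their annotated starts are not a C followed by pyrimidines (the upstream of 2 windows for Rps27l and Rpl3l). This choice does not set the paralogs apart. Of the 63 genes with a window, 50 lack a start of C and 4 pyrimidines, among them the core members Rpl5, Rpl22 and Rps19.
Rps6 (chr4:86857348-86857377, minus strand): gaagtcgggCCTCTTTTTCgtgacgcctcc
Rpl35 (chr2:39005112-39005141, minus strand): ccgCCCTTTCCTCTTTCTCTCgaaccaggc
Rpl38 (chr11:114668570-114668599, plus strand): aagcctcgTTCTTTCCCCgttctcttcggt
Rplp2 (chr7:141447641-141447670, plus strand): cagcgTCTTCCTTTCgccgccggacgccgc
Rps27 (chr3:90213629-90213658, minus strand): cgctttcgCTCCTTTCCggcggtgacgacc
Rps27l (chr9:66946076-66946105, plus strand): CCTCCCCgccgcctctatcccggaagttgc
Rpl7l1 (chr17:46782637-46782666, minus strand): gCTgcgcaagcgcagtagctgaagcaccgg
Rpl22l1 (chr3:28805498-28805527, plus strand): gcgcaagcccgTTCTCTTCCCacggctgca
Rpl3l (chr17:24727816-24727845, plus strand): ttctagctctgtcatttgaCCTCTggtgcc

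A start of C followed by at least 4 pyrimidines was found in 13 of the 75 member windows (17.3%), against 2.51% of all 32851 windows of the same length. The 13 genes were Rpl14, Rpl15, Rpl28, Rpl35, Rpl35a, Rpl38, Rplp2, Rps6, Rps10, Rps15a, Rps18, Rps21 and Rps27. Within 20 bases of the start on either side, a run of at least 10 pyrimidines stood in 30.7% of the member windows and in 7.39% of all windows. The result depends on which start is annotated: the window of Rps16, which encodes a small subunit protein, has no such run at the start that RefSeq gives. Over the whole window and on both strands, the core CCGGAAG bound by ETS factors was present in 36% of member windows and 8.86% of all windows, the core AAGATGG of the factor YY1 in 16% and 6.34%, and the letters TATAAA in 9.33% and 13.6%. These 3 motifs were counted apart from one another, and a match describes letters only.

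Of the 83 genes, 80 had enough counts to be tested, 48 of the large and 32 of the small subunit. Together the 83 genes took 3.16%, 3.58% and 2.91% of all counts in stressed mice 10, 11 and 13, against 3.49%, 3.36% and 3.09% in resting mice 15, 17 and 19. The highest and the lowest share both belonged to stressed mice, and the resting mice lay between them. The means were 3.22 ± 0.338% in stressed and 3.32 ± 0.203% in resting colon (SD, n = 3 each), a difference of -0.0997 percentage points that was smaller than either SD. Without stressed mouse 13 the difference was 0.0537 percentage points, without stressed mouse 11 it was -0.281, without resting mouse 15 it was -0.0107 and without resting mouse 19 it was -0.210. The 51 large subunit genes took 1.89 ± 0.198% of counts in stressed and 1.95 ± 0.117% in resting colon, and the 32 small subunit genes took 1.32 ± 0.141% and 1.37 ± 0.0862%.

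Levels between genes are compared per length, as counts per kilobase of all annotated exons of the gene (GENCODE M21, same build), scaled to the same total in each library (sum of 1e6). On this scale Rplp1, an acidic protein of the stalk that recruits translation factors, averaged 3000.2 ± 236 in stressed and 2992 ± 236 in resting colon (SD, n = 3 each). It was followed by Rps3a1, a small subunit protein near the exit of the mRNA, at 2208 ± 194 and 2264 ± 163, and by Rps15 at 2102 ± 201 and 2170.1 ± 218. Rplp0, the base of the stalk, averaged 1887 ± 108 in stressed and 2025 ± 88.2 in resting colon. Rpl36 averaged 1738 ± 114 and 1780.2 ± 122. These 5 genes led on this scale, and their values overlapped between the groups.

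Leaving aside the paralogs and Rpl24, the remaining 76 core members spanned 116 to 2996 per kilobase of exon over all 6 mice, a 25.9-fold range with a median of 605. The levels depend on the length used: per kilobase of the principal transcript alone, the same 76 genes had a median of 935. On that scale Rpl41, which encodes a peptide of 25 residues, was first at 2508 ± 237 in stressed and 2559.8 ± 113 in resting colon. Rps15a stayed lowest among the core members on both scales, at 112 ± 12.1 per kilobase of exon in stressed and 120 ± 6.68 in resting colon. Rpl21 came next from below, at 126 ± 13.8 and 127 ± 8.51. Rps15a has 130 codons, yet its lengths were 6270 bases of exon and 5179 bases of principal transcript. Its low rank depends on these annotated lengths. Not divided by length, as CPM (defined below), Rps15a averaged 257 over all 6 mice, above Rpl38, the lowest core member, at 127. In CPM the core members spanned a 9.05-fold range.

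**Figure D1:**
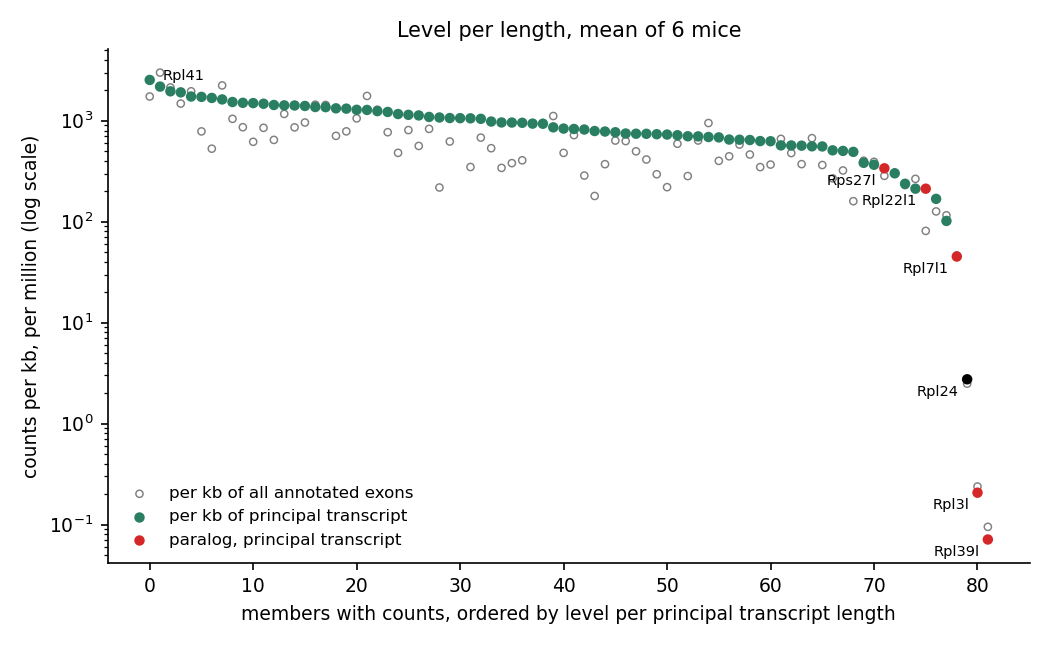
Level of each member with counts, as counts per kilobase scaled to a sum of 1e6 on a log axis, mean of 6 mice, ordered by the level per principal transcript; filled points use the principal transcript and open points all annotated exons. Most members lie within the 25.9-fold range of the core genes, whereas Rpl24, Rpl3l and Rpl39l lie far below it.

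Rpl24 stood outside the range of the core members. It encodes a large subunit protein at the interface of the subunits, yet had 15, 27 and 16 counts in stressed mice 10, 11 and 13, against 17, 8 and 14 counts in resting mice 15, 17 and 19. All 6 values are low, and the groups overlapped. The level was 2.88 ± 0.916 per kilobase of exon in stressed and 2.10 ± 0.773 in resting colon, far below that of Rps15a. A second annotated transcript on the same strand, Gm28037, shares 484 bases with Rpl24, 47.0% of its exons, and was listed at 0 counts in all 6 libraries. No source used here says how the counting treated reads that fall in both, so the Rpl24 count is uncertain as a measure of its mRNA; whether the overlap accounts for the low count was not tested.

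Shared exons occur in other members too. Rpl13a shares 29.4% of its exons with the protein-coding Gm45713 on the same strand, and on the opposite strand Wdr38 overlaps 66.2% of the exons of Rpl35 and Tlcd1 59.7% of those of Rpl23a, which matters if the counting ignored strand. Small nucleolar RNA genes lie within annotated exons of 24 members on the same strand, as many of these RNAs are processed from introns of ribosomal protein genes; Snora7a, for example, takes 14.5% of the annotated exons of Rpl32. Processed pseudogenes are the other source of shared reads, since ribosomal protein mRNAs are among the templates most often copied back into mammalian genomes. The 257 pseudogenes with -ps in a ribosomal protein symbol held 1.77 ± 0.0844% as many counts as the members in stressed and 1.75 ± 0.0288% in resting colon. Pseudogenes with other names, such as Rpl6l with 559 to 769 counts per mouse, are not in this ratio. For a few members the ratio was far higher: 35.2% for Rpl14, 29.3% for Rps10, 26.8% for Rpl21, 15.8% for Rpl38 and 12.3% for Rps16. Counts of these 5 genes are uncertain where reads could be split between the copies.

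Several members have paralogs with restricted expression in mammals. Rpl10l, a retrogene used in male germ cells, had 0 counts in all 6 libraries, which allows a level of up to 0.154, 0.164 and 0.182 CPM (counts per 1e6, scaled by TMM factors) in stressed mice 10, 11 and 13, and of up to 0.179, 0.176 and 0.166 CPM in resting mice 15, 17 and 19 (3 counts; this covers counting error only). Rpl39l, also known from male germ cells, had 0, 1 and 0 counts in stressed mice 10, 11 and 13 and 0, 1 and 1 counts in resting mice 15, 17 and 19. Rpl3l, the paralog that replaces Rpl3 in heart and skeletal muscle, had 2, 4 and 0 counts in stressed mice and 0, 5 and 4 counts in resting mice. All 3 genes were at or near 0 in each mouse and were left out of the test by the filter on low counts. Their partners were abundant: Rpl10 averaged 613 ± 78.3 CPM in stressed and 640 ± 23.3 CPM in resting colon, Rpl39 185 ± 24.6 and 188 ± 16.04 CPM, and Rpl3 692 ± 60.4 and 708 ± 28.6 CPM.

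Another 3 paralogs were expressed. Rps27l, a p53-responsive relative of Rps27, had 79.4, 94.4 and 79.4 CPM in stressed mice 10, 11 and 13, against 83.6, 76.2 and 80.6 CPM in resting mice 15, 17 and 19. Mouse 11 was highest and the groups overlapped. Rpl22l1, which can take the place of Rpl22, averaged 56.5 ± 7.54 CPM in stressed and 57.7 ± 6.13 CPM in resting colon. Rpl7l1, a relative of Rpl7 involved in ribosome assembly, averaged 55.1 ± 4.58 and 59.6 ± 4.11 CPM. Per kilobase of principal transcript, Rpl7l1 stood at 42.7 ± 2.59 in stressed and 47.7 ± 3.00 in resting colon, against 1312 ± 108 and 1322 ± 107 for Rpl7, whereas Rpl22l1 (207 ± 22.3 and 218 ± 24.3) came close to Rpl22 (234 ± 18.3 and 241 ± 16.7). That closeness depends on the length used: per kilobase of all annotated exons Rpl22l1 stood at 78.7 ± 8.83 in stressed and 83.5 ± 9.67 in resting colon, against 226 ± 18.7 and 234 ± 16.98 for Rpl22. Rps4l, a relative of Rps4x annotated as a transcribed pseudogene, averaged 23.3 ± 2.13 CPM in stressed and 25.8 ± 8.53 CPM in resting colon.

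No ribosomal protein gene passed the test for a change in stressed colon. With edgeR's quasi-likelihood test, adjusted by Benjamini-Hochberg over all 16119 tested genes, 0 of 80 members passed an adjusted p of 0.05, where 0.0310% of all tested genes did (5 genes, with 0.0248% higher and 0.00620% lower). At an unadjusted p under 0.05 the count was again 0 of 80, against 6.92% of all tested genes, and the smallest unadjusted p was 0.10, for Rps27a. DESeq2, which called 0.218% of the genes it tested, an edgeR fit with no filter on low counts, which called 0.588%, and limma-voom also called 0 members. No member had groups whose CPM values did not overlap, where 12.7% of all tested genes did.

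Apart from those of Rpl24 and Rps27a, the estimates were small as well as short of the threshold. The log2 fold change, stressed over resting, was above 0 for 29 members and below 0 for 51, where 49.0% of all tested genes were above 0. Its median was -0.0095 over the members and -0.0033 over all tested genes. Large and small subunit genes had medians of -0.0095 and -0.0073. The SD of the log2 fold changes across genes was 0.079 among members, 0.26 among all tested genes and 0.12 among tested genes above 100 CPM. The sign of the members' median depended on single mice: it was -0.10 without stressed mouse 11, 0.06 without stressed mouse 13, 0.03 without resting mouse 15 and -0.04 without resting mouse 19.

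The intervals show which changes remain possible. The 95% interval lay within a 1.5-fold change in both directions for 78 of the 80 members, against 68.3% of all tested genes, the exceptions being Rps27a and Rpl24. Rpl24, with low counts in all 6 mice, had the highest estimate, a log2 fold change of 0.50 with an interval of -0.36 to 1.36. Rps27a had the lowest, at -0.31. For the 78, estimates ran from -0.11 (Rpl7l1) to 0.10 (Rpl38) on the log2 scale, and no interval reached below -0.34 or above 0.33. These intervals are computed gene by gene and share the same 6 mice.

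**Figure D2:**
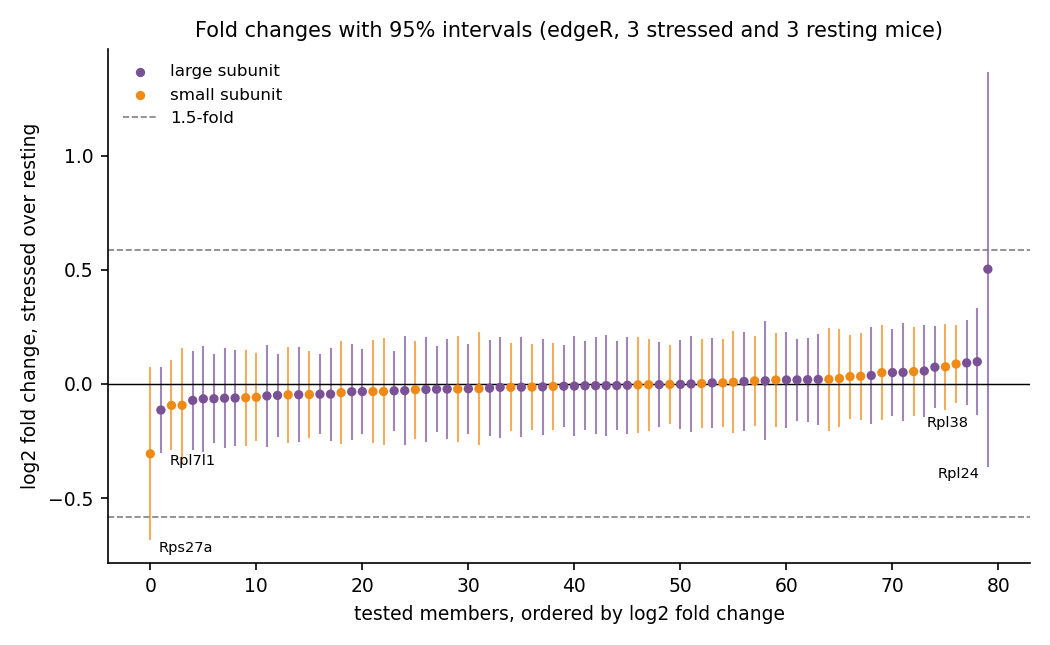
Log2 fold change, stressed over resting, of the 80 tested members with 95% intervals from edgeR, ordered by size and coloured by subunit; dashed lines mark a 1.5-fold change. Every interval holds 0, and 78 of 80 lie inside the dashed lines; Rps27a and Rpl24 do not.

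Some members illustrate the size of the spread. Rps6, the small subunit protein phosphorylated by S6 kinases downstream of mTORC1, had 454, 507 and 437 CPM in stressed mice 10, 11 and 13, against 476, 472 and 452 CPM in resting mice 15, 17 and 19. The highest and the lowest value were both from stressed mice. Its log2 fold change was -0.0020 ± 0.08 (SE), with a 95% interval of -0.17 to 0.17.

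Rpl5 and Rpl11 form, with the 5S ribosomal RNA, the particle that can bind Mdm2 and stabilise p53 when ribosome assembly fails. The large subunit protein gene Rpl5 averaged 639 ± 74.7 CPM in stressed and 646 ± 48.8 CPM in resting colon, and its log2 fold change was -0.01, with an interval of -0.23 to 0.20. Rpl11 averaged 394 ± 40.6 and 381 ± 14.8 CPM, and its log2 fold change was 0.05, with an interval of -0.14 to 0.24. Rps19, the gene most often mutated in human Diamond-Blackfan anaemia, averaged 297 ± 28.1 CPM in stressed and 299 ± 16.2 CPM in resting colon. Rpsa, which encodes a small subunit protein also known as a laminin receptor precursor, averaged 714 ± 63.1 and 698 ± 21.8 CPM. The groups overlapped for each of these genes.

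Rpl13a takes part in silencing of inflammatory mRNAs in human monocytes; it averaged 778 ± 86.6 CPM in stressed and 785 ± 48.1 CPM in resting colon. Rps3, at the mRNA entry channel, averaged 633 ± 62.6 and 639 ± 25.2 CPM, and Rps4x, an X-linked small subunit gene, 671 ± 56.1 and 677 ± 39.6 CPM. Among members with estimates above 0, the smallest p-values after that of Rpl24 belonged to Rps16, with 311 ± 20.9 CPM in stressed mice and 292 ± 13.3 CPM in resting mice, and to Rpl29, with 239 ± 20.6 and 224 ± 13.8 CPM. Their log2 fold changes were both 0.09, with adjusted p-values of 0.863 and 0.867 (edgeR). On the other side, after Rps27a, stood Rpl7l1 at -0.11 (edgeR adjusted p = 0.829) and Rps9 at -0.09 (adjusted p = 0.873), with the Rps9 mRNA at 486 ± 40.6 CPM in stressed mice and 519 ± 39.1 CPM in resting mice. Rpl38, Rpl13 and Rps27l at 0.10, 0.07 and 0.08 and Rps27, Rpl32 and Rpl10a at -0.09, -0.07 and -0.06 completed the genes with the smallest p-values, with edgeR adjusted p-values of 0.893 to 0.920. Each 95% interval held 0.

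Rps27a departed from the other members. It encodes a fusion of ubiquitin with small subunit protein S27a. Its values were 225, 244 and 181 CPM in stressed mice 10, 11 and 13, against 347, 248 and 207 CPM in resting mice 15, 17 and 19. Resting mouse 15 stood well above the other mice, stressed mouse 13 was lowest, and the groups overlapped. The log2 fold change was -0.31 ± 0.17 (SE), with a 95% interval of -0.68 to 0.07 and an edgeR adjusted p of 0.764. Without resting mouse 15 it was -0.07 (adjusted p = 0.98), and over all alternatives the adjusted p ran from 0.36 to 0.9996.

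The polyubiquitin gene Ubb did not share the high value of mouse 15. It had 501, 562 and 520 CPM in stressed mice 10, 11 and 13, against 509, 525 and 486 CPM in resting mice 15, 17 and 19. Mouse 11 was highest, mouse 19 was lowest and mouse 15 lay between them. Fau, a fusion of a ubiquitin-like protein with small subunit protein S30, had 441, 457 and 380 CPM in stressed mice, against 437, 399 and 372 CPM in resting mice. An opposite-strand gene, Clhc1, overlaps 8.11% of the Rps27a exons and averaged 0.5 counts.

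**Figure D3:**
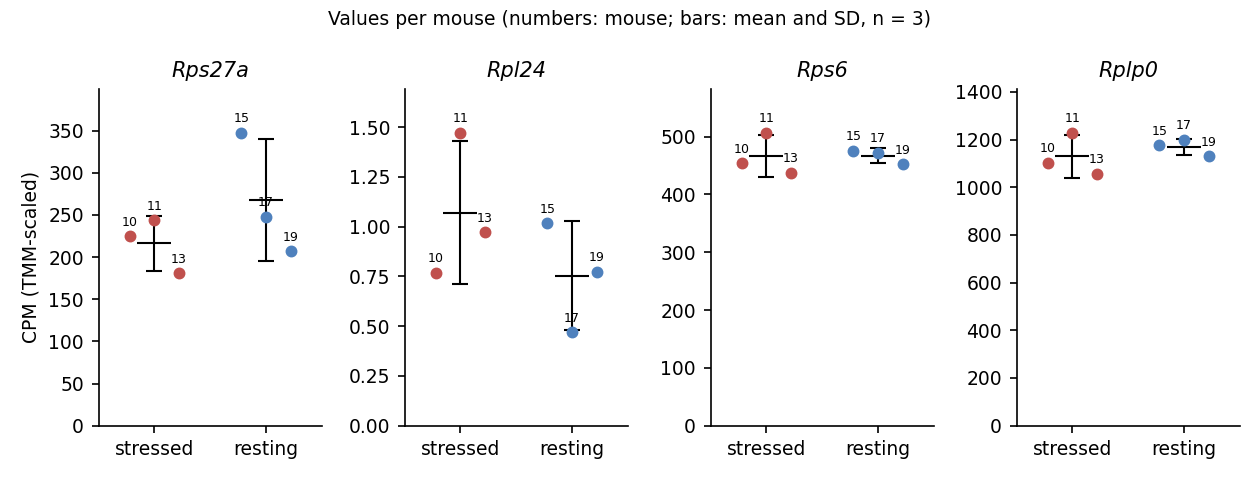
CPM in each mouse for Rps27a, Rpl24, Rps6 and Rplp0, stressed mice to the left and resting mice to the right, each axis starting at 0; bars give the mean and SD of 3 mice and small numbers name the mouse. Resting mouse 15 stands apart for Rps27a at 347 CPM, Rpl24 lies near 1 CPM throughout, and stressed mouse 11 is highest for Rps6 and Rplp0.

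The members differed less between the groups than between mice of a group, and they did so together. The deviation of a gene in a mouse is its log2 CPM minus the mean of that gene over the 6 mice. The median deviation of the 80 members was -0.02, 0.16 and -0.16 in stressed mice 10, 11 and 13, against 0.07, 0.02 and -0.07 in resting mice 15, 17 and 19. Stressed mouse 11 was high, stressed mouse 13 was low, and the resting mice spanned a narrower range between them.

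The shift covered nearly every member. The number of the 80 members above their own mean was 20, 80 and 1 in stressed mice 10, 11 and 13, against 80, 53 and 2 in resting mice 15, 17 and 19. Among all tested genes the percentage above their own mean lay between 50.2% and 52.8% in each mouse. It varied more among the other genes above 100 CPM. There it was 62.7%, 45.2% and 55.5% in stressed mice 10, 11 and 13. In resting mice 15, 17 and 19 it was 44.4%, 34.8% and 60.4%. All 80 members were higher in mouse 11 than in mouse 13, by a median of 0.32 on the log2 scale or 1.25-fold, where 50.5% of all tested genes and 45.1% of the other genes above 100 CPM were higher. The difference was smallest for Rps16, at 0.17.

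In the resting group all 80 members were higher in mouse 15 than in mouse 19, by a median of 0.14 on the log2 scale. Mouse 11 was the highest of all 6 for 72 members and mouse 13 the lowest for 72, against 17.6% and 18.3% of all tested genes. The members that were not highest in mouse 11 were Rpl10a, Rpl22l1, Rpl7l1, Rplp2, Rps9, Rps13, Rps27 and Rps27a. The ones not lowest in mouse 13 were Rpl7, Rpl13, Rpl24, Rpl29, Rplp1, Rps2, Rps16 and Rps27l. These are descriptions of single mice, which have no replicates of their own and no test.

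**Figure D4:**
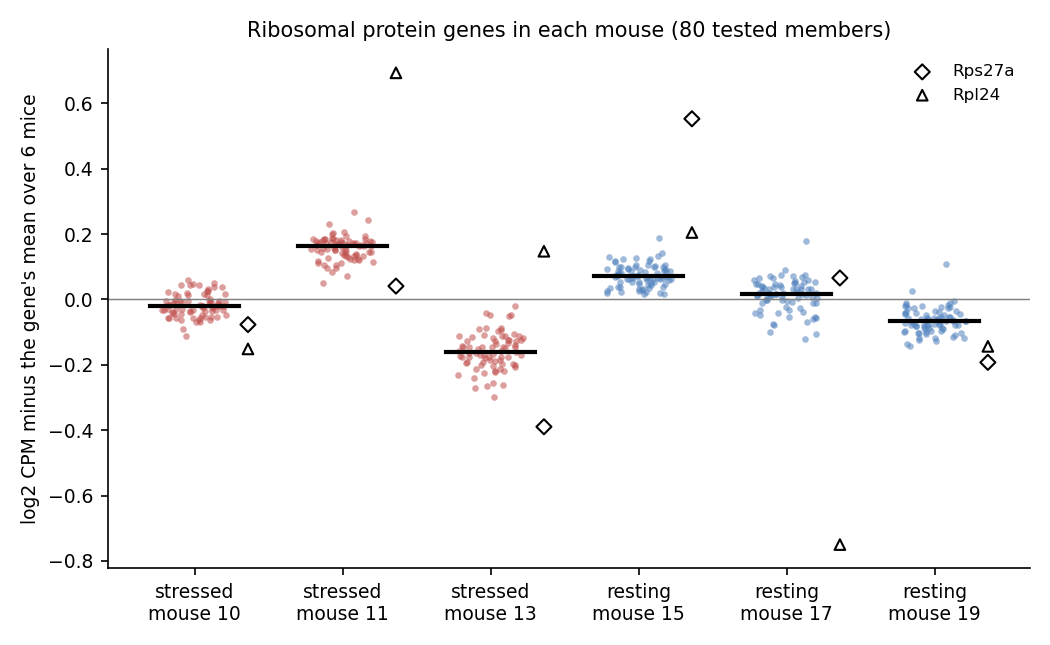
Deviation of each tested member in each mouse (log2 CPM minus the mean of the gene over 6 mice), stressed mice to the left and resting mice to the right; dots are genes, black lines medians over 80 members, and open symbols Rps27a and Rpl24. The medians are -0.02, 0.16 and -0.16 in stressed mice and 0.07, 0.02 and -0.07 in resting mice, and the dots of each mouse lie close to its line.

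Before any adjustment for this shift, the members with the largest within-group SD of log2 CPM were Rpl24 (0.46), Rps27a (0.31) and Rpl36a (0.195), and those with the smallest were Rps16 (0.082), Rps6 (0.083) and Rpl6 (0.085). The members' median SD was 0.13, against 0.15 for all tested genes and 0.087 for other genes above 100 CPM. After the members' median was subtracted from each mouse, the median SD was 0.037 for the members, 0.20 for all tested genes and 0.16 for the other genes above 100 CPM. A drop among the members follows from the subtraction itself, and so does a rise among genes that do not share the shift. The values after subtraction therefore do not compare the members with other genes. The members' value describes only how far single members strayed from the rest. Rps3a1 and Rpl8, at an SD of 0.013 after subtraction, followed the common course most closely, and Rpl24 (0.41), Rps27a (0.23) and Rps2 (0.099) least. Before subtraction, both subunits had a median deviation of 0.16 in mouse 11 and of -0.16 in mouse 13.

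Subunit genes that the name rule leaves out showed part of the same course. Rack1, a scaffold on the head of the small subunit, had 701, 805 and 688 CPM in stressed mice 10, 11 and 13, against 811, 757 and 699 CPM in resting mice 15, 17 and 19. Mice 11 and 15 were high and mice 10, 13 and 19 low. Fau, whose values stand above, was highest in mouse 11 and lowest in mice 13 and 19. Rpl36al, a relative of Rpl36a, averaged 89.8 ± 10.1 CPM in stressed and 91.1 ± 1.43 CPM in resting colon and was highest in mouse 11 and lowest in mouse 13. The 13 members with a C and pyrimidines at the start had median deviations of 0.17 in mouse 11 and -0.19 in mouse 13, against 0.16 and -0.16 for the other members with a window, and median log2 fold changes of -0.0056 and -0.014. This split rests on the exact annotated base. Rpl27a, with a run of 20 pyrimidines across its start, is among the others. The part of the motif in the result was not tested.

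Other genes of the same pathway were read from lists of named genes. Translation factors and other products of TOP mRNAs (24 genes) had 0 members past the threshold, with 8 estimates above 0 and 16 below and a median log2 fold change of -0.02. Their median deviations were -0.02, 0.09 and -0.10 in stressed mice 10, 11 and 13, against 0.07, 0.02 and -0.06 in resting mice 15, 17 and 19, and 10, 23 and 7 of the 24 lay above their mean in stressed mice, against 21, 14 and 4 in resting mice. The order of the mice was that of the ribosomal protein genes, over a smaller range. Eef1a1, which delivers aminoacyl-tRNA to the ribosome, had 4194, 4622 and 4310 CPM in stressed mice, against 4770.0, 4899 and 4320.0 CPM in resting mice. Its log2 fold change was -0.09 ± 0.08 (SE), with an edgeR adjusted p of 0.867. Hnrnpa1, an RNA-binding protein encoded by a TOP mRNA, had the smallest p of the list, with a log2 fold change of 0.15 and an adjusted p of 0.784 (edgeR).

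Host genes of small nucleolar RNAs, whose spliced transcripts often begin with a TOP motif, were tested for 12 of the 18 listed. Of these, 0 passed, 2 estimates were above 0 and 10 below, and the median log2 fold change was -0.05. Their median deviations were 0.0059, 0.07 and -0.15 in stressed mice and 0.16, -0.05 and -0.04 in resting mice, so that mouse 15 was highest and mouse 13 lowest. Snhg5 stood at a log2 fold change of 0.20 (edgeR adjusted p = 0.768) and Snhg12 at -0.24 (adjusted p = 0.821).

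Genes that build the ribosome or control its mRNAs did not follow the same order of mice. Of 39 tested ribosome biogenesis factors 0 passed, with 9 estimates above 0 and 30 below and a median of -0.04; their deviations were 0.01, -0.06 and -0.05 in stressed mice and 0.06, -0.03 and 0.06 in resting mice. Nob1, the nuclease that completes the RNA of the small subunit, stood at -0.21 (edgeR adjusted p = 0.760). The 17 tested genes of the RNA polymerase I machinery, which transcribes ribosomal RNA, had 7 estimates above 0 and 10 below, 0 past the threshold and a median of -0.07, and Ubtf, a factor that binds ribosomal DNA, stood at 0.15 (adjusted p = 0.752).

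The list of mTORC1 and TOP mRNA control held 26 tested genes, 0 of them past the threshold, with 9 estimates above 0, 17 below and a median of -0.06. Sesn2, a leucine sensor that restrains mTORC1, had the smallest p of the list, which measured 19.05 ± 1.43 CPM in stressed mice and 25.98 ± 4.78 CPM in resting mice; its log2 fold change was -0.45 (edgeR adjusted p = 0.505). Rps6kb1, the S6 kinase that phosphorylates the Rps6 protein, stood at -0.15 (adjusted p = 0.740) and Ddit4, another restraint on mTORC1, at 0.23 (adjusted p = 0.761).

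Chaperones of ribosomal proteins and factors of ribosome surveillance had 0 of 19 past the threshold and a median of -0.05; Nemf, which acts on stalled large subunits, stood at -0.19 (edgeR adjusted p = 0.590). Cytosolic aminoacyl-tRNA synthetases had 0 of 20 past the threshold and a median of -0.01. Proteins of the mitochondrial ribosome, a list added after the data were seen, had 0 of 76 past the threshold, 54 estimates above 0, 22 below and a median of 0.03, with deviations of -0.0015, 0.08 and -0.03 in stressed mice and 0.03, -0.09 and -0.0031 in resting mice.

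**Figure D5:**
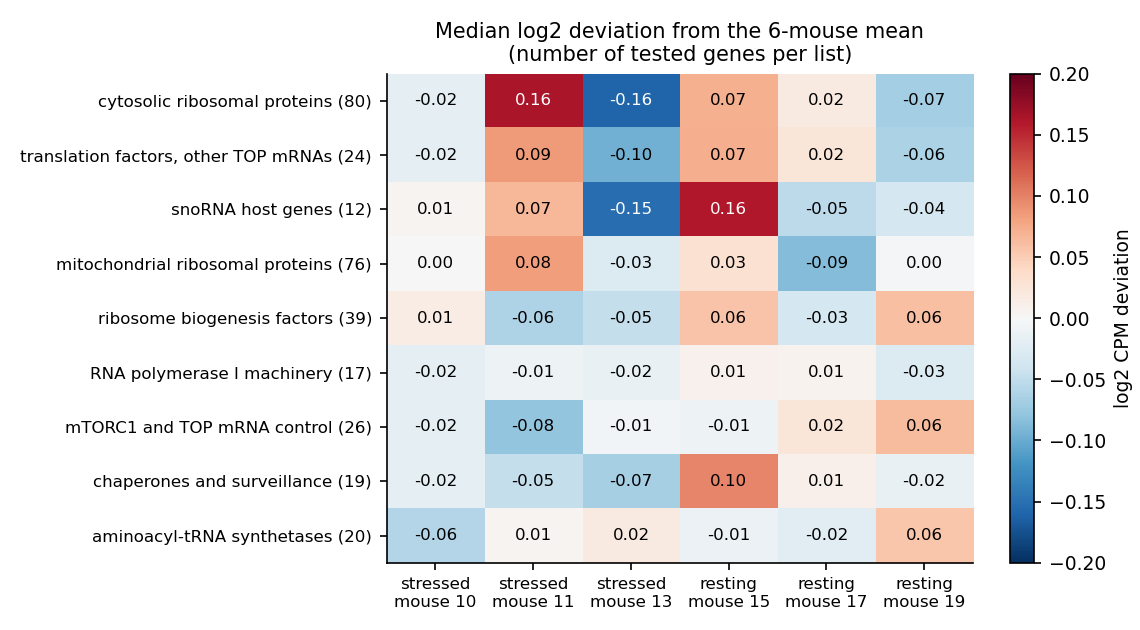
Median deviation per mouse (log2 CPM minus the mean of each gene over 6 mice) for the ribosomal protein genes and 8 related lists, stressed mice to the left and resting mice to the right; numbers in brackets give tested genes. The ribosomal protein row runs from -0.16 in stressed mouse 13 to 0.16 in stressed mouse 11, the translation factor row has the same order of mice over a smaller range, and the biogenesis row has another order.

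Library totals were between 16425525 and 19819267 counts, and mitochondrial transcripts took 6.65% to 7.29% of them. Mouse 13 had 16575181 counts, mouse 11 had 18584545 and mouse 15 had the lowest total. The part of library totals in the result was not tested. All 16 colon epithelium markers were detected and tested. The 14 smooth muscle markers, none at 0, summed to 5833, 6157 and 5337 CPM in stressed mice 10, 11 and 13, against 5606, 5920.3 and 4829 CPM in resting mice 15, 17 and 19, and 12, 14 and 3 of them were above their mean in stressed mice, against 7, 12 and 1 in resting mice. They were thus high in mouse 11 and low in mice 13 and 19, as the ribosomal protein genes were, but unlike them also high in mouse 10 and near their mean in mouse 15. Of 8 adipocyte markers, 7, 8 and 3 were above their mean in stressed mice 10, 11 and 13, against 0, 5 and 2 in resting mice 15, 17 and 19. Of 11 enteric neuron and glia markers, 10, 11 and 5 were above their mean in stressed mice, against 2, 1 and 4 in resting mice. Both lists were high in mouse 11 and low in mouse 15, where the ribosomal protein genes were high. Of the 16 epithelium markers, 6, 12 and 9 were above their mean in stressed mice, against 9, 5 and 11 in resting mice. The 12 macrophage and dendritic cell markers were all above their mean in mouse 13 and 0 of them in mouse 10, the 9 fibroblast markers all in mouse 17 and 0 in mouse 19, and the 12 tested B and plasma cell markers all in mouse 11 and 0 in mouse 10. Of 12 T cell markers, 9, 4 and 5 were above their mean in stressed mice, and 10, 6 and 7 in resting mice. For the 7 tested erythroid and skeletal muscle markers the numbers were 6, 6 and 5 in stressed mice and 1, 4 and 2 in resting mice. Their log2 fold changes were above 0 for 6 and below 0 for 1, with a median of 1.17, and 0 passed the threshold. The part of any of these lists in the result was not tested. The 15 markers of dividing crypt cells, none at 0, summed to 674, 779 and 769 CPM in stressed mice, against 620, 516 and 724 CPM in resting mice. Of these, 7, 11 and 13 were above their mean in stressed mice 10, 11 and 13, against 2, 0 and 11 in resting mice 15, 17 and 19. They were thus high in mice 11, 13 and 19. Their log2 fold changes were above 0 for 14 and below 0 for 1, and 0 passed the threshold. The part of this list in the result was not tested either.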

How the data were processed

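Poly(A) RNA of 6 colon samples was sequenced from stranded libraries, per the labels' protocols. The deposited table holds raw read counts per Ensembl gene; fastp, HISAT2 and build mm10 are named, with no version, per the submitters' processing notes. The sources used here do not name the counter, annotation or strand setting. Symbols came from a table of Ensembl identifiers (42462 matched), coordinates and lengths from GENCODE M21, and promoter sequence from RefSeq. Groups came from the treatment label, and each mouse was 1 replicate; chi-square per gene between libraries was 7.78 to 18.2, so none looked deposited as a copy.

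Counts were tested with edgeR 4.0.16 in R 4.3.3 (filterByExpr with minimum count 10 and minimum total 15, TMM factors 0.985 to 1.02, quasi-likelihood F test) on all 6 libraries, with Benjamini-Hochberg adjustment over 16119 genes. Deviations and SDs use log2 CPM with a prior count of 2. SE and 95% intervals come from the same fit. An exact permutation test of 3 against 3 cannot go below 0.10. The test was checked on simulated data. Alternatives were other scalings and filters, trended dispersions, DESeq2 1.42.0, limma-voom (limma 3.58.1), pseudogene counts added, and each mouse left out. Trended dispersions are the default of this edgeR version, so that run equals the reported fit. The bias-adjusted fit, other scalings of the deviations and principal transcript length were added after seeing the data.

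The members, the lists and the rule for named genes (highest and lowest levels, smallest p-values per direction, largest and smallest SD, paralogs with partners, and fixed members) were chosen with earlier results of these data known; Ubb, Rpl8, Rps2 and members singled out for pseudogene counts, starts or order of mice were named after their values were seen. Of 289 list entries 280 matched an identifier. Protein sequences were not used here, and some named genes are not reported here.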

Additional observations from a re-analysis of the deposited data

How the results depend on the processing

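No ribosomal protein gene passed under any alternative run. The log2 fold changes of the 37 named tested members kept the sign of the reported fit in 567 of 628 values, but 9 of the 37 kept 1 sign throughout. The largest value of the other sign was 0.12 in size. Among the 17 alternatives, the run with trended dispersions repeats the reported fit, so its values keep the sign by construction. The number of all tested genes past the threshold was 5, against 151 with no filter, 56 with DESeq2 and 3 with limma-voom, and 1 to 14 with a mouse left out (1 without stressed mouse 10 or without resting mouse 15, 14 without stressed mouse 11); the cause was not tested. Other scalings moved the difference between mice 11 and 13 only between 0.315 and 0.326. Leaving out a mouse moved the members' median log2 fold change between -0.10 and 0.06, and that of the RNA polymerase I list between -0.070 and -0.023, of the mTORC1 list between -0.080 and -0.0069 and of the biogenesis list between -0.088 and -0.035; with library totals the RNA polymerase I median was -0.105. Annotated length sets the level: the median over tested members was 572 per kilobase of exon and 848 per kilobase of principal transcript. No paired analysis was possible because the groups share no mouse number. Unknown counting rules leave Rpl24 and members with many pseudogene reads uncertain.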
